A study of Mus musculus with 2 samples.

Results

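Lymphatic endothelial cells of the mouse heart were taken from 2 single-cell RNA libraries as the barcodes that carried RNA of genes typical of lymphatic vessels. A barcode with at least 200 detected genes was a member when Reln, Mmrn1, Ccl21a and Prox1 together had 3 or more unique molecular identifiers (UMIs, each standing for 1 captured RNA molecule), when Ryr2 and Myh6 of cardiomyocytes made up under 0.6% of its UMIs, and when Pdgfra, Col1a2 and Col3a1 of fibroblasts together had at most 1 UMI. This gave 191 cells of 19865 barcodes: 76 of 9934 in the library labelled Sham and 115 of 9931 in the library labelled TAC. The members were thus selected on their measured levels of these genes. Both libraries came from hearts of C57BL/6 mice, dissociated whole into single cells, with 3 to 5 hearts pooled in each, so single animals cannot be told apart. TAC is transverse aortic constriction, the ligation of the aortic arch, which was done in male mice aged 8 weeks and lasted 6 weeks. Sham mice had the same operation without the ligation, per the labels, whereas the design text of the deposit speaks of uninjured mice. The age and sex of the Sham mice are not given in the labels, and neither condition has a second library, so every difference between Sham and TAC is a difference between 2 libraries and has no p-value.

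Lymphatic vessels of the heart take up interstitial fluid, proteins and immune cells and return them to the blood. Their endothelium is specified by the transcription factor PROX1, which is induced in venous cells with the help of SOX18 and NR2F2, and it grows in response to VEGF-C and VEGF-D, the ligands of the receptor VEGFR-3 that Flt4 encodes. Its capillaries carry the hyaluronan receptor LYVE-1 and the mucin-like glycoprotein podoplanin (Pdpn), release the chemokine CCL21, which guides leukocytes with the receptor CCR7 into the vessel, and secrete reelin (Reln) and the extracellular matrix protein multimerin 1 (Mmrn1).

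The genes that define these cells lie on 5 chromosomes in the GENCODE M21 annotation of GRCm38, and all are protein coding. Reln spans chr5:21884454-22344702 on the minus strand, Mmrn1 chr6:60924976-60989378 on the plus strand, Ccl21a chr4:42772860-42773993 on the minus strand, Prox1 chr1:190118035-190170714 on the minus strand and Flt4 chr11:49609263-49652739 on the plus strand. All 5 were found in the RefSeq promoter windows of GRCm38.p6, with 2 start sites for Prox1, and the 250 bases before each start were searched on both strands for AGGTCA (the core bound by nuclear receptors such as NR2F2), AACAAT (a SOX core), TGCTGA (a core bound by MAF factors) and CCGGAA (an ETS core). The windows of Reln, Mmrn1 and the outer Prox1 start are shown because Reln and Mmrn1 were the most often detected of the 4 genes in these cells and PROX1 specifies them. Capitals mark matches, 5′ to 3′ on the strand of the gene.
Reln, chr5:22344706-22344955, minus strand: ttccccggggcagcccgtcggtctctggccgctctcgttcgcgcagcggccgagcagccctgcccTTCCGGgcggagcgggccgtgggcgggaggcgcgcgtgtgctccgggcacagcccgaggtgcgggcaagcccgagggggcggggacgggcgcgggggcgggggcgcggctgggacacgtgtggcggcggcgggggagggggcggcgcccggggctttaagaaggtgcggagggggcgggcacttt
Mmrn1, chr6:60944067-60944316, plus strand: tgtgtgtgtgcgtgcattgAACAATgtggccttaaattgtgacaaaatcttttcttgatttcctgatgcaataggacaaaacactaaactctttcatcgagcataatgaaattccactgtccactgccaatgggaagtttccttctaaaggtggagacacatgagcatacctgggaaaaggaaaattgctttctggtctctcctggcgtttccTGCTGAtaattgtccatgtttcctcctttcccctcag
Prox1, chr1:190170828-190171077, minus strand: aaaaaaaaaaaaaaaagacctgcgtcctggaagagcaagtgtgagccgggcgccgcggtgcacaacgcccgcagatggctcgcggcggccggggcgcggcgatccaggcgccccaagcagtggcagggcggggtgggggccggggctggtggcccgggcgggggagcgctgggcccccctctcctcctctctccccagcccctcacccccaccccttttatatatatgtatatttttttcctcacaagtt
The Reln window holds 1 CCGGAA on the opposite strand (TTCCGG as printed), and the Mmrn1 window holds 1 AACAAT and 1 TGCTGA, with no overlap between them. None of the 4 motifs is in either Prox1 window, in the Ccl21a window or in the Flt4 window. Among all 32851 promoter windows of this length, 14% hold AGGTCA, 9.42% AACAAT, 16.1% TGCTGA and 12% CCGGAA, so these matches are a description of the letters only. The Reln window is 80% G or C and the Mmrn1 window 42.4%, against a median of 52.4% over all windows. The Mmrn1 window precedes a RefSeq start that lies inside the GENCODE span of the gene given above, so it is not the region before the outermost annotated start.

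The Sham library held 28146691 UMIs and the TAC library 29108986. The members held 170486 UMIs in Sham, with a median of 1877 per cell (506 to 6793), and 287626 in TAC, with a median of 2255 (565 to 9549), and at most 4.47% of the UMIs of any member were mitochondrial. The libraries shared 32 barcode sequences, none of which belonged to a member. Blood endothelial cells served as the comparison. They were barcodes under the same cardiomyocyte and fibroblast limits with 0 UMIs of the 4 defining genes, at least 3 UMIs of Flt1, Cdh5, Pecam1 and Egfl7, and at most 1 of C1qa, C1qb, C1qc and Csf1r, and numbered 1629 in Sham (median 1217 UMIs) and 2033 in TAC (median 1327). Levels below are summed UMIs per 1000000 UMIs of the same cells (CPM) with exact Poisson 95% intervals, and all intervals cover counting error only.

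Flt4, which the rule did not use, marked the members. Its level was 874 CPM in Sham members (739 to 1026) and 914 in TAC members (807 to 1032), against 58.9 and 62.8 in blood endothelial cells. A gate of cardiomyocytes, by at least 3% Ryr2 and Myh6, had 1.10 CPM in Sham and 1.62 in TAC, and a fibroblast gate had 0.512 and 1.47. When each cell was thinned to 1000 UMIs, a Flt4 UMI was seen in 37 of 65 Sham members (56.9%) and 67 of 108 TAC members (62.04%), against 4.93% and 5.24% of blood endothelial cells and 2 of 938 Sham cardiomyocytes. Pdpn was at 117 CPM in Sham members and 188 in TAC members, against 1.31 and 2.28 in blood endothelial cells. Summed over the members, Flt4 and Pdpn thus go with the label against blood endothelial cells, although not every member had Flt4. Pdpn was shared with fibroblasts. Thinned to 1000 UMIs, it was seen in 4.5% of Sham and 4.3% of TAC cells of the fibroblast gate, against 12.3% and 13.9% of members. Lyve1 was also less particular than Flt4. It was at 334 CPM in Sham members and 337 in TAC members, but the macrophage gate had 179 and 298, whereas blood endothelial cells had 15.3 and 13.3. Prox1 was also found outside the lymphatics, at 140 CPM in Sham cardiomyocytes and 186 in TAC cardiomyocytes. The cardiomyocyte limit removed more barcodes than it left. Of 312 Sham barcodes with 3 or more UMIs of the defining genes, 233 were over it, and 206 of the 233 had 3 or more UMIs from Prox1 alone. In TAC these numbers were 423, 299 and 271.

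**Figure D1:**
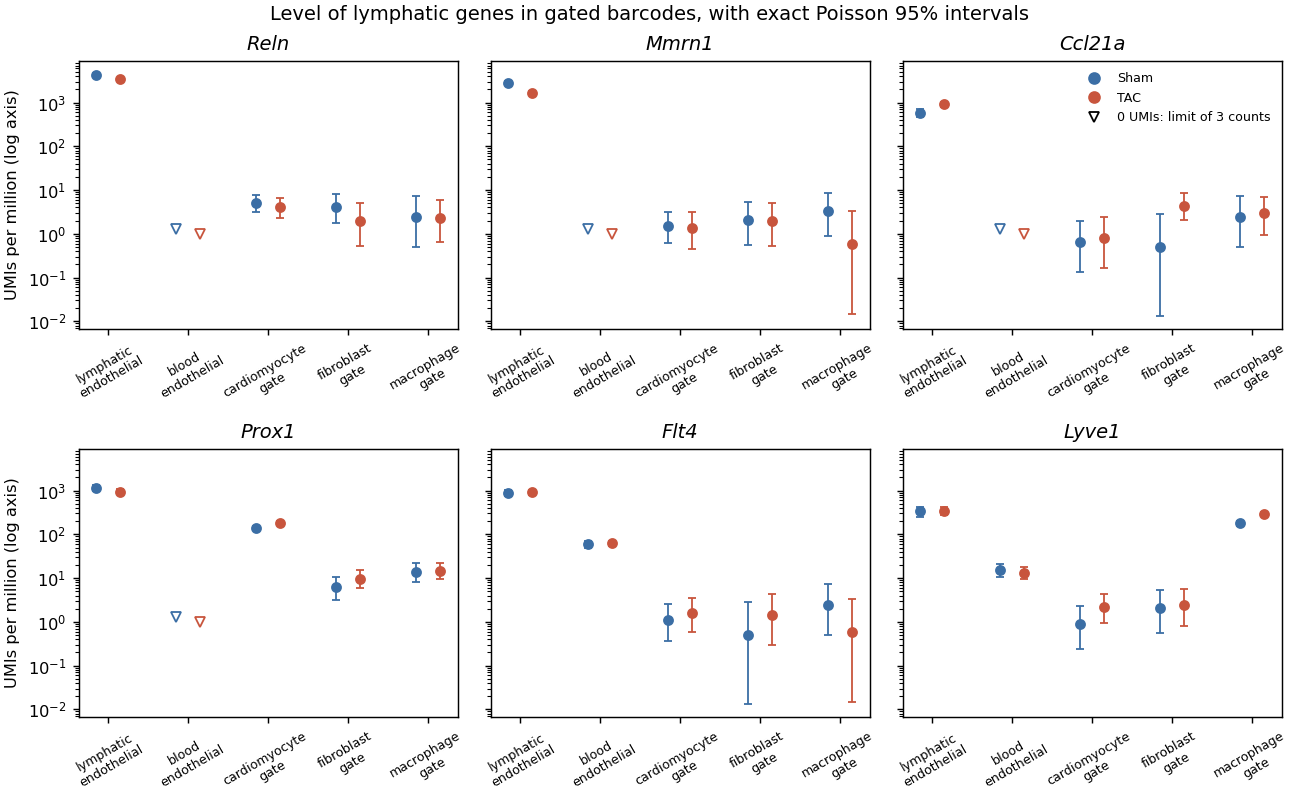
Level of 6 lymphatic genes (CPM, log axis) in lymphatic and blood endothelial cells and in cardiomyocyte, fibroblast and macrophage gates, for Sham (blue) and TAC (red). Bars are exact Poisson 95% intervals and open triangles mark the limit of 3 counts where 0 UMIs were found. The defining genes are at 0 in blood endothelial cells by construction, Flt4 stands apart in the lymphatic cells, Prox1 is second in cardiomyocytes and Lyve1 second in macrophages.

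The members differed in how much of the defining RNA they held. Reln was the most frequent of the 4 genes, found in 71 of 76 Sham members (93.4%) and 104 of 115 TAC members (90.4%). Mmrn1 was found in 88.2% and 87.8%, Prox1 in 78.9% and 75.7%, and Ccl21a in 51.3% and 59.1%. All 4 genes were detected together in 30 Sham members (39.5%) and 50 TAC members (43.5%), whereas 6 and 9 rested on a single gene. The summed UMIs of the 4 genes had a median of 15 and a maximum of 137 in Sham, and a median of 11 and a maximum of 73 in TAC. At the edge of the rule, 4 Sham and 8 TAC members had exactly 3 such UMIs, with Flt4 at 323 and 40.7 CPM. The 15 Sham and 16 TAC barcodes just outside, with 2 UMIs, had Flt4 at 66.0 and 24.4 CPM and Flt1 at 429 and 1220. The TAC members at the edge had little Flt4, while the 40 Sham and 50 TAC members with 15 or more UMIs of the defining genes had Flt4 at 942 and 989.5 CPM.

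**Figure D2:**
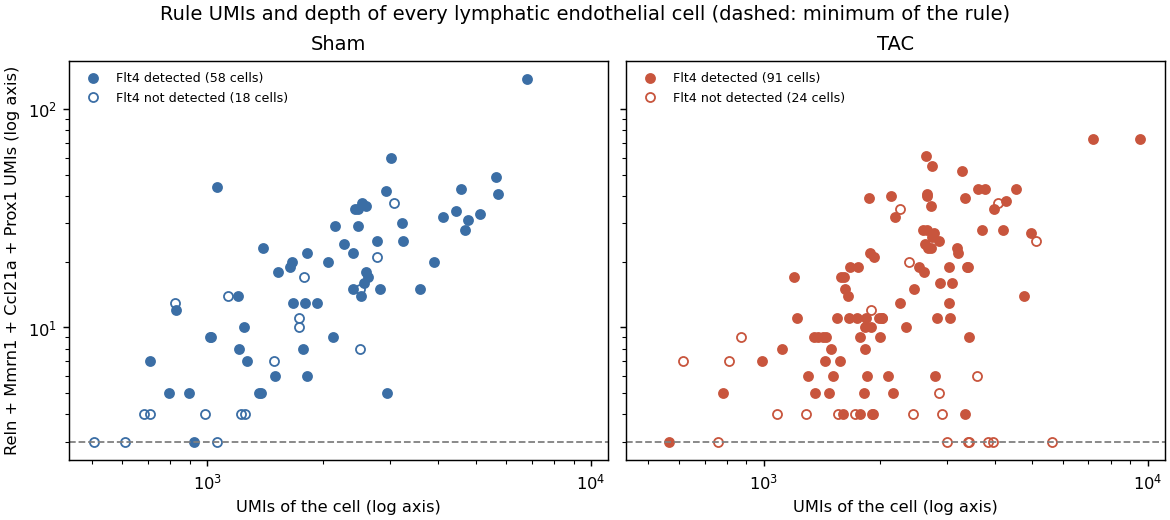
Every lymphatic endothelial cell by its depth (x axis, UMIs of the cell, log axis) and its summed UMIs of Reln, Mmrn1, Ccl21a and Prox1 (y axis, log axis), Sham on the left and TAC on the right. Filled points had a Flt4 UMI (58 of 76 Sham cells, 91 of 115 TAC cells). On the dashed minimum of 3 lie 4 Sham and 8 TAC cells, of which 1 in each library had Flt4.

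The share of lymphatic cells was higher in TAC among all barcodes. They were 0.765% of Sham barcodes (exact Clopper-Pearson interval 0.603 to 0.957) and 1.16% of TAC barcodes (0.957 to 1.39), a ratio of 1.51 (1.12 to 2.05). Among lymphatic and blood endothelial barcodes together they were 4.46% in Sham (3.53 to 5.55) and 5.35% in TAC (4.44 to 6.39). Per blood endothelial barcode the ratio of TAC to Sham was 1.21 with an interval of 0.900 to 1.64, so relative to the other endothelium the difference was within counting error. Cell recovery in dissociation can set such shares, and its part was not tested.

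Lymphatic cells differed from blood endothelium in transcription factors, adhesion and guidance molecules, some of which other cell types shared. A gene was called higher or lower when the ratio of levels was past 2-fold in the same direction in both libraries and both exact intervals left out 1, among 10233 genes with at least 20 UMIs in the endothelial cells of each library. Of all these genes 4.14% were called higher and 5.07% lower. Of 27 lymphatic endothelial genes that the rule did not use, 19 could be compared, 12 were higher and 1 was lower, with a median log2 ratio of 2.22 in Sham and 2.08 in TAC against 0.01 and -0.02 over all compared genes. This list, like the others, was chosen with earlier results of these data known. The lymphatic and venous transcription factor Nr2f2 was at 546 and 525 CPM in Sham and TAC members against 129 and 144 in blood endothelial cells, ratios of 4.23 and 3.65. Tbx1, a T-box factor that acts in lymphatic development, was at 240 and 150 CPM in the members. It had 0 UMIs in Sham blood endothelial cells, so the level in members was at least 184-fold higher against a limit of 3 counts, and 2 UMIs in TAC blood endothelial cells, a ratio of 230 (59.9 to 1959). Sox18, which acts before Prox1, was at 46.9 and 27.8 CPM in members against 29.2 and 29.3, and it was not called.

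The ratio of Flt4, the receptor of VEGF-C, was 14.8 in Sham (11.7 to 18.9) and 14.6 in TAC (12.1 to 17.6). Lyve1 was higher by ratios of 21.9 and 25.3, and Pdpn by 89.7 (26.6 to 471) and 82.5 (37.4 to 215). Piezo2, a mechanically gated ion channel, was at 868 and 584 CPM in the members against 31.0 and 25.4, and Pard6g, a subunit of the PAR polarity complex, at 1050 and 657 against 15.3 and 15.9. The atypical chemokine receptor Ackr2, which scavenges inflammatory CC chemokines, was at 135 and 86.9 CPM against 4.36 and 4.55. Itga9, the integrin alpha 9 chain, and Stab1, a scavenger receptor, were higher by smaller ratios of 3.35 and 2.61 and of 4.67 and 4.23. Gata2, a zinc finger factor of lymphatic valves, was the exception, with 3 UMIs in Sham members and 9 in TAC members and ratios of 0.115 (0.0237 to 0.340) and 0.273 (0.124 to 0.523).

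**Figure D3:**
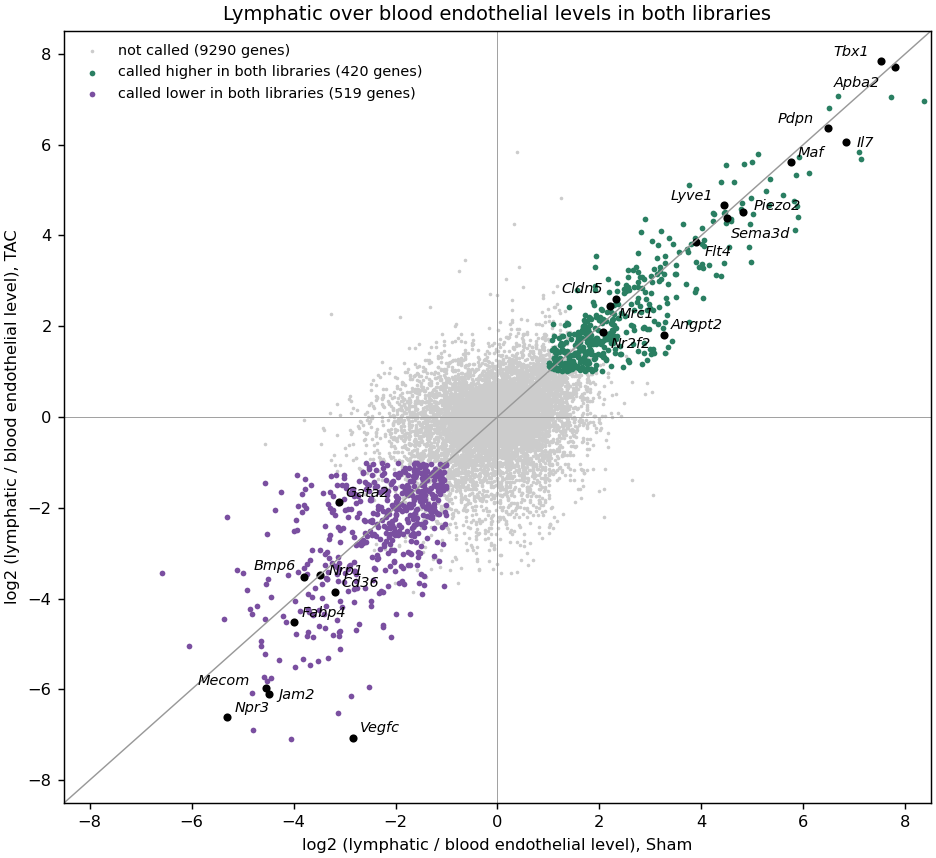
Ratio of lymphatic to blood endothelial level of each compared gene (log2) in Sham (x axis) and TAC (y axis), without the 4 defining genes. Green points were called higher and purple points lower in both libraries. The labelled genes run from Tbx1, Apba2, Pdpn and Il7 at the upper right to Npr3 at the lower left, and Vegfc lies far below the diagonal, with ratios of 0.140 in Sham and 0.00747 in TAC.

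Beyond the listed genes, the 15 highest ratios were led by the 4 defining genes themselves, whose position follows from the rule. Next came Apba2, which encodes an adaptor of the amyloid precursor protein, at 487 CPM in Sham members and 410 in TAC members against 2.18 and 1.95. Its ratios were 223 and 210. Maf, a transcription factor of the bZIP class, was at 1038 and 862 CPM against 19.2 and 17.6, and it was found in 58 Sham and 81 TAC members. Fndc1 was higher by ratios of 137 and 57.0, Tc2n by 210 and 133, Pld5 by 332 (109 to 1646) and 125, Clca3a1 by 60.5 and 52.6, Efcc1 by 140 and 51.1, and Fgf12 by 58.3 and 40.5. Tll1, a metalloprotease of the BMP1 family, was higher by 40.7 and 37.9, although 102 of its 354 UMIs in TAC members were in 1 cell. At the other end stood genes with far higher levels in the blood endothelial cells, whose gate did not leave out endocardial endothelium. Mecom, a zinc finger factor of arterial and capillary endothelium, was at 123 and 45.2 CPM in members against 2862 and 2843. Npr3, the natriuretic peptide clearance receptor, had 1 UMI in the members of each library, with ratios of 0.0252 (0.000638 to 0.141) and 0.0102 (0.000259 to 0.0571). The other genes with the lowest ratios were Vwa3a, Zfp366, Slc28a2, Adgrg1, Rapgef3, Ankrd33b, Dach1 and Car8, each at or below 64.5 CPM in the members.

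Of 15 receptors and co-receptors of the lymphatic growth factors compared, 2 were higher, Flt4 and Itga9, and 3 were lower. Nrp2, the co-receptor that VEGF-C uses, was at 739 and 942 CPM in Sham and TAC members against 459 and 444, ratios of 1.61 and 2.12, and was not called because the Sham ratio was under 2. Nrp1, the co-receptor of VEGF-A, was at 93.9 and 122 CPM against 1048 and 1367, ratios of 0.0896 and 0.0890. Kdr, which encodes VEGFR-2, differed by ratios of 0.960 (0.718 to 1.26) and 0.971 (0.784 to 1.19). The angiopoietin receptor Tek and the phosphatase Ptprb that acts on it were lower, with Tek at 305 and 316 CPM against 711 and 721. Calcrl, the receptor for adrenomedullin and its relatives, was at 563 and 796 CPM against 408 and 579.

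The ligands for these receptors were found mostly in other cells. Of 10 ligands and processing factors compared, 1 was higher in lymphatic cells and 2 were lower. Vegfc was at 58.7 CPM in Sham members (10 UMIs) and 3.48 in TAC members (1 UMI), against 419 and 465 in blood endothelial cells and 198 and 146 in the fibroblast gate. Vegfd was at 54.8 and 54.4 CPM in fibroblasts and at 17.6 and 41.7 in the members. Ccbe1, which helps to activate VEGF-C, was at 206 and 240 CPM in fibroblasts and 157 and 125 in cardiomyocytes, and 7 UMIs in all were found in the members. Svep1, a matrix protein that binds angiopoietins, was at 485 and 362 CPM in fibroblasts and had 5 UMIs in the members. Angpt2 was the ligand of the lymphatic cells, at 147 and 97.3 CPM in members against 15.3 and 27.6 in blood endothelial cells, ratios of 9.61 and 3.52. In Sham 13 of its 25 UMIs in members were in 1 cell. Pdgfb was lower, at 88.0 and 55.6 CPM against 298 and 277. The Hgf growth factor had 0 UMIs in Sham members, a limit of 17.6 CPM, and 18 UMIs in 6 TAC members.

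Of 15 cell junction genes compared, 1 was higher and 6 were lower, and Cdh5 among the 6 had been used to choose the blood endothelial cells. Cldn5, a claudin of tight junctions, was at 153 and 240 CPM in Sham and TAC members against 30.5 and 39.3, ratios of 5.00 and 6.10. Jam2, an adhesion molecule of tight junctions, had 3 and 2 UMIs in the members against 392 and 479 CPM, ratios of 0.0449 (0.00924 to 0.132) and 0.0145 (0.00176 to 0.0525). Esam was at 29.3 and 10.4 CPM against 259 and 233, and Rapgef4, which encodes a cAMP-activated exchange factor for RAP1, at 64.5 and 27.8 against 392 and 376. The remaining 2 were Jam3 and Afdn. Among genes of valves and collecting vessels, some of the best known had few UMIs. Foxc2, the factor of lymphatic valves, had 5 UMIs in Sham members and 6 in TAC members, Cldn11 had 1 in each, and Celsr1 had 10 and 18. Of 18 such genes compared, 3 were higher (Piezo2, Itga9 and Sema3a) and 4 lower (Gata2, Fat4, Klf4 and Lama5). The 3 higher genes and Gata2 were also in the list of lymphatic identity genes.

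The guidance and leukocyte traffic lists also held genes called higher, although the lists overlapped. Sema3a and Sema3d of the guidance list were also in the list of lymphatic identity genes. Of 22 reelin pathway and axon guidance genes compared, 7 were higher, including Reln, which chose the cells, and 2 were lower. Ntn1, which encodes the guidance factor netrin 1, was at 1126 and 1168 CPM in Sham and TAC members against 167 and 190, ratios of 6.76 and 6.15. Sema3d was at 534 and 633 against 23.5 and 30.2, and Sema3a at 616 and 716 against 32.3 and 32.2, with 53 of the 206 TAC UMIs of Sema3a in 1 cell. Dab2, an endocytic adaptor, Unc5b, a netrin receptor, and Efna5, an ephrin, were higher by ratios between 2.09 and 4.01. The reelin receptors and their adaptor were near absent, with 3 and 7 UMIs of Vldlr, 2 and 0 of Lrp8 and 0 and 6 of Dab1 in Sham and TAC members. Of 17 chemokine, scavenging and adhesion genes compared, 6 were higher, including Ccl21a, and 3 were lower. Il7, the survival cytokine of lymphocytes, was at 199 and 174 CPM against 1.74 and 2.60, ratios of 114 (40.8 to 444) and 66.8 (31.4 to 163). Mrc1, the mannose receptor shared with macrophages, was at 141 and 243 against 30.5 and 44.5. Lower were the chemokine Cxcl12 and the adhesion molecules Icam2 and Vcam1. Ccl21a reads cannot be fully separated from its near-identical copies. Ccl21b had 0 UMIs in the members and Ccl21d had 2, both in TAC.

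Of 20 lipid uptake genes compared, 8 were lower, 1 was higher and the other 11 were not called. Cd36, the fatty acid translocase, was at 240 and 136 CPM in Sham and TAC members against 2202 and 1973, and Fabp4, a fatty acid binding protein, at 88.0 and 52.2 against 1392 and 1198. The other 6 were Fabp5, Gpihbp1, Lpl, Scarb1 and the capillary factors Meox2 and Tcf15. Abca1, the exporter of cholesterol, was the gene that was higher, at 581 and 428 CPM against 152 and 141. Of 22 genes of capillary, endocardial and arterial endothelium, 16 were lower and 0 higher, with Flt1 among the 16 by construction. The endothelial gene Emcn stayed closer, with ratios of 0.655 and 0.495. Vessel matrix genes split evenly, with 5 higher and 5 lower of 20. Lama4, the laminin alpha 4 chain, was at 1449 and 1464 CPM against 382 and 446, whereas Col4a2 was at 182 and 195 against 729 and 580 and the perlecan gene Hspg2 at 117 and 139 against 636 and 605. Timp2, Timp3, Tgfbi and Colec12 were the other genes called higher.

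In the TGF-beta, BMP and Notch list, 3 of 21 genes were higher and 7 lower. The receptor Tgfbr2 was at 475 and 636 CPM in Sham and TAC members against 141 and 146, and Tgfb2 and Smad1 were higher as well. Among the 7 that were lower, Bmp6 was at 88.0 and 104 against 1217 and 1207, and the co-receptor Eng at 123 and 306 against 725 and 847. Smad6 and Smad7, inhibitors of the pathway, had 0 UMIs in Sham members and 6 and 5 in TAC members against 154 to 272 CPM in blood endothelial cells, and the others were the BMP targets Id1 and Id3 and the receptor Notch4. Of 16 genes of endothelial activation and interferon response, 3 were lower (Vcam1, H2-K1 and Tap1) and 0 higher. Of 14 glucocorticoid-induced genes, Fkbp5 and Errfi1 were higher and Sgk1 lower. None of 13 immediate-early and 12 clock genes was called, and only 1 of 11 cell cycle genes had enough UMIs to be compared.

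**Figure D4:**
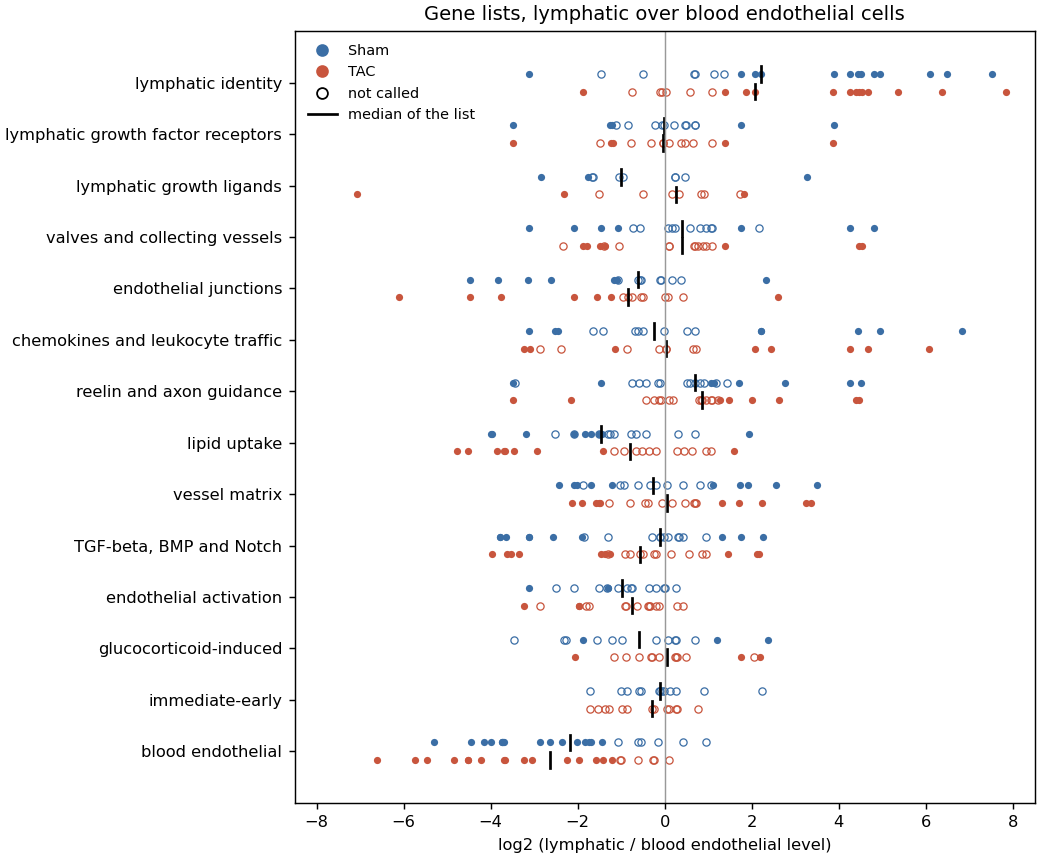
Ratio of lymphatic to blood endothelial level (log2, x axis) of the compared genes of 14 lists, Sham in blue and TAC in red, without the 4 defining genes. Filled points were called in both libraries and black bars are list medians, with genes at 0 set at a limit of 3 counts. Lymphatic identity lies to the right and blood endothelial and lipid genes to the left.

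Within the lymphatic cells, those with and without a Lyve1 UMI differed in several genes. Lyve1 was detected in 30 of 76 Sham members and 49 of 115 TAC members, and these cells were deeper, with medians of 2444.5 and 2653 UMIs against 1630 and 1916. Their levels are a description, since the split is itself a count. The 14 Sham and 25 TAC members with 3 to 5 UMIs of the defining genes held 2 of 57 and 2 of 97 Lyve1 UMIs. Nearly all of these members were thus in the group without Lyve1, and their Flt4 was at 522 and 300 CPM. The split therefore also parts members by how much defining RNA they held. Piezo2 was at 1123 CPM in Sham members with Lyve1 and 642 in those without, and at 817 and 383 in TAC, ratios of 1.75 (1.24 to 2.48) and 2.13 (1.54 to 2.98). Mmrn1 (ratios 1.40 and 1.96), Sema3d (1.98 and 1.41) and Nr2f2 (1.71 and 1.45) were also higher in cells with Lyve1 in both libraries. Flt1 went the other way, at 87.4 against 266 CPM in Sham and 29.97 against 143 in TAC. Stab2 (ratios 0.10 in Sham and 0.19 in TAC) and Fn1 (0.094 and 0.257) did as well, from at most 18 UMIs in any group. Reln had a ratio of 1.84 (1.61 to 2.10) in TAC and 0.977 (0.844 to 1.13) in Sham, and Ccl21a 2.38 (1.83 to 3.12) and 1.36 (0.894 to 2.07). The difference between the libraries was not tested. Prox1 and Tbx1 showed ratios between 0.880 and 1.01. Across single members the level of Reln and that of Mmrn1 had Spearman correlations of 0.33 over 76 Sham cells and 0.45 over 115 TAC cells, the highest of the pairs of defining genes. The cells share a library and a depth range, and the same genes selected them.

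Between the libraries, the defining genes did not move together. Reln was at 4346 CPM in Sham members and 3414 in TAC members, a TAC to Sham ratio of 0.786 (0.713 to 0.865). Mmrn1 was at 2786 and 1658, a ratio of 0.595 (0.523 to 0.677). Ccl21a was at 569 and 904, a ratio of 1.59 (1.25 to 2.03), and 1.504 when the richest cell of each library was left out. In TAC 48 of its 260 UMIs were in 1 cell. These genes selected the members, so the values describe the cells as chosen. Thinned to 1000 UMIs, 29.2% of Sham members and 48.1% of TAC members had a Ccl21a UMI, and 92.3% and 81.5% a Reln UMI. Among genes that the rule did not use, the ratio was 1.05 for Flt4 (0.853 to 1.29), 1.01 for Lyve1 (0.720 to 1.43), 0.962 for Nr2f2 (0.738 to 1.26) and 1.60 for Pdpn (0.943 to 2.82), with intervals that included 1. Piezo2 was lower in TAC members by a ratio of 0.673 (0.536 to 0.845) and Pard6g by 0.626 (0.507 to 0.772), both short of 2-fold.

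Of 4468 genes with at least 20 UMIs in the members of both libraries together, 189 (4.23%) were past 2-fold higher and 110 (2.46%) past 2-fold lower in TAC members. The gene lists held few of them. Of 17 lymphatic identity genes compared, 1 was higher: the fibrinogen-like protein Fgl2, with 15 UMIs in Sham members and 56 in TAC members, at 88.0 and 195 CPM. Of 13 TGF-beta, BMP and Notch genes 2 were higher. Eng was at 123 and 306 CPM, a ratio of 2.48 (1.53 to 4.21), and was found in 14 Sham and 50 TAC members, while its ratio in blood endothelial cells was 1.17. Id1 was at 11.7 and 83.4 CPM, from 2 and 24 UMIs, a ratio of 7.11 (1.77 to 62.1) against 1.34 in blood endothelial cells, and Id3 at 35.2 and 76.5 was not called. Cebpd, a transcription factor of the glucocorticoid list, was at 35.2 and 125 CPM, a ratio of 3.56 (1.48 to 10.3), whereas Fkbp5 and Zbtb16 of the same list, at 639 and 365 and at 792 and 396, were not called and had lower ratios in blood endothelial cells, 0.392 and 0.264, than in members, 0.571 and 0.501. Lower in TAC members were the NF-kappaB inhibitor Nfkbia, at 99.7 and 27.8 CPM, and the class I molecule H2-K1, at 153 and 69.5, 2 of 6 activation genes compared. H2-K1 was lower in TAC blood endothelial cells too, with a ratio of 0.723 (0.657 to 0.796) against 0.456 in members. Of 8 blood endothelial genes compared, Flt1 was lower, at 182 and 90.4 CPM from 31 and 26 UMIs, a ratio of 0.497 that became 1.055 when barcodes with 2 UMIs of the defining genes were included. Of 8 lipid genes, Apoe was higher, at 29.3 and 129, and it was higher in TAC blood endothelial cells too, with a ratio of 2.03. Lpl was lower, at 106 and 45.2, although without the richest cell of each library the interval of Lpl reached 1.07. None was called of 14 growth factor receptor, 3 ligand, 11 valve, 10 junction and 9 leukocyte traffic genes compared. The same held for 17 guidance, 15 matrix, 4 immediate-early and 5 clock genes. Vegfc (10 and 1 UMIs in Sham and TAC members) and Hgf (0 and 18) were under the minimum of 20 UMIs and were not compared.

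The genes lowest in TAC members kept their direction when the richest cell of each library was left out, with 1 exception. Cyp4b1, a cytochrome P450, was at 311 CPM in Sham members and 73.0 in TAC members, a ratio of 0.235 (0.135 to 0.396). Gas6, a ligand of TAM receptors, was at 164 and 48.7, a ratio of 0.296, and Bmx, a non-receptor tyrosine kinase, at 264 and 93.9, a ratio of 0.356. Glyr1, Fhit, Aox1, Mgrn1, Ppp1r21 and Tbc1d30 had ratios from 0.348 to 0.395. The exception was Lsamp, whose 25 Sham UMIs included 22 in 1 cell and whose ratio of 0.379 became 1.99.

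The genes highest in TAC members rested largely on single cells. A TAC member of 5625 UMIs, with 3 Reln UMIs and none of Mmrn1, Ccl21a, Prox1 or Flt4, held 138 of the 138 UMIs of Cadm2, 110 of 112 of Csmd1, 66 of 67 of Nkain2, 37 of 40 of Ncam1 and 46 of 85 of Zeb2. It also held 23 of the 25 UMIs of Cdh19, a Schwann cell cadherin. Cdh19 was not particular to Schwann cells here, since the fibroblast gate had it at 203 CPM in Sham and 122 in TAC. A second TAC member, of 3947 UMIs with 2 Reln UMIs and 1 Prox1 UMI, held 38 of 44 UMIs of Myh7, 37 of 48 of Ankrd1 and 25 of 39 of Xirp2, genes of stressed cardiomyocytes. The TAC to Sham ratios of Nkain2 (39.7), Csmd1 (at least 22.1), Cadm2 (at least 27.3), Ncam1 (11.9) and Myh7 (13.04) were thus set almost wholly by 1 cell each. Of the top 10, Xirp2, Ptprj, Zeb2 and Apoe were still called without their richest cells, with ratios of 8.29 (1.26 to 350.5), 6.55 (2.06 to 33.4), 3.255 (1.44 to 8.63) and 3.845 (1.33 to 15.2), and the other 6 were not. Over all genes, 149 of the 189 called higher and 85 of the 110 called lower were called again without the richest cell of each library. With members limited to those with at least 2 of the 4 defining genes, 70 in Sham and 106 in TAC, 160 genes were higher and 117 lower.

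RNA of some other cell types was also more frequent in TAC members. Summed over 9 fibroblast markers it was 135 CPM in Sham members (23 UMIs, with Pdgfra, Col1a1, Col1a2, Lum and Dpt at 0) and 389 in TAC members (112 UMIs), against 454 and 558 in blood endothelial cells. Of these, Dcn had 3 and 34 UMIs and was called higher. Over 10 macrophage markers it was 46.9 (8 UMIs) and 191 (55 UMIs) CPM, against 165 and 210 in blood endothelial cells. In TAC members 13 of the 55 UMIs were in 1 cell. Of these markers, F13a1 (2 and 18 UMIs) was called higher at a ratio of 5.33. That ratio became 0.525 when barcodes with 2 UMIs of the defining genes were included. Over 6 Schwann cell markers there were 2 and 43 UMIs, 36 of the 43 in 1 cell. Of the 43, 25 were of Cdh19, which the fibroblast gate also held. The 8 cardiomyocyte markers were at 2475 and 2322.5 CPM, the 9 markers of T and B cells had 0 and 1 UMIs, and the 6 mesothelial markers had 0 in both. Pericyte and smooth muscle markers were at 223 and 202 CPM, with 28 of the 38 Sham UMIs in 1 cell, and platelet markers had 0 and 4 UMIs. Ribosomal protein genes summed to 2012 CPM in Sham members and 3512 in TAC members, against 2796 and 2583 in blood endothelial cells. In TAC 172 of their 1010 UMIs in members were in 1 cell, and of 24 compared 4 were called higher and 1 lower. None of 12 mitochondrial genes was called, and mitochondrial genes summed to 16177 and 9933, against 13570 and 10731. The part of these in the differences between the libraries was not tested.

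**Figure D5:**
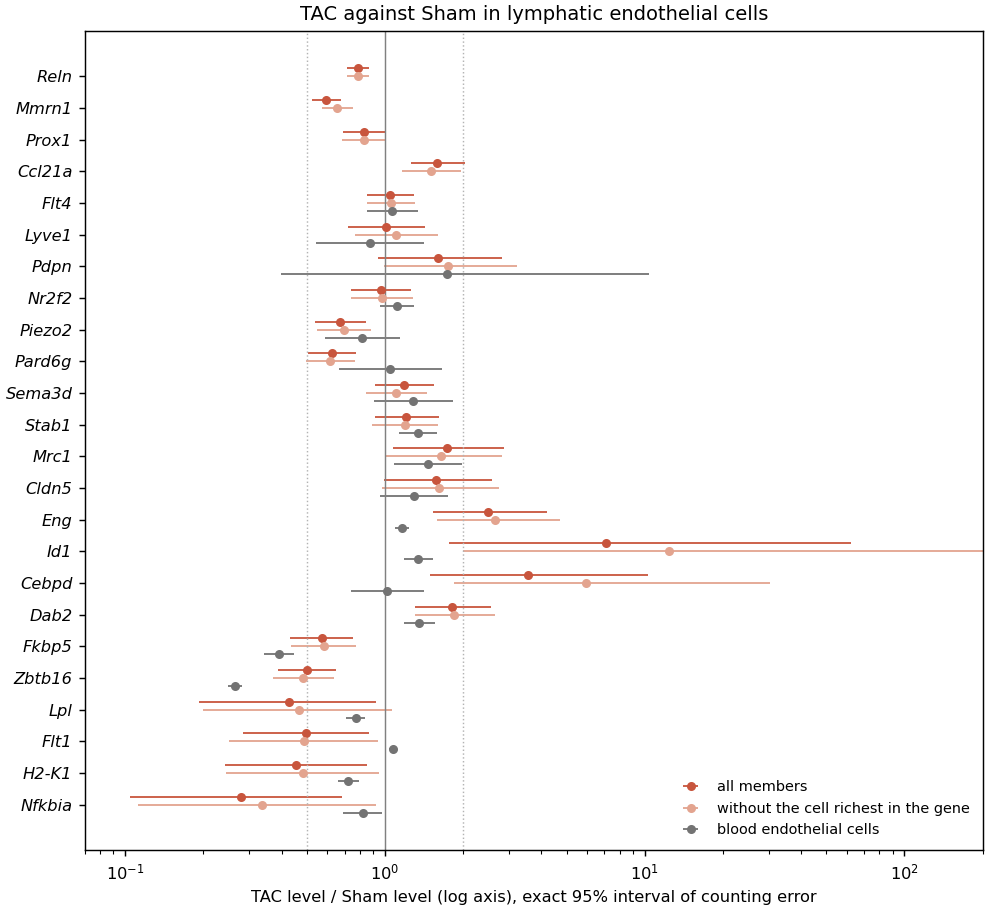
Ratio of TAC to Sham level (log axis) of selected genes in all lymphatic endothelial cells (red), in those cells without the cell richest in the gene (pale) and in blood endothelial cells (grey), with exact 95% intervals of counting error. Dotted lines mark 2-fold, and the 4 defining genes have no grey point because the blood endothelial cells hold none of their UMIs by definition. Eng, Id1 and Cebpd lie to the right of 2-fold in lymphatic cells while Flt4, Lyve1 and Nr2f2 lie near 1, and the pale interval of Id1 runs past the axis to 513.9.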

How the data were processed

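The authors built 10x Chromium 3-prime libraries and counted UMIs with Cell Ranger (7.1.0 in the matrix header and the submitters' processing notes, an earlier version in the study's methods, which also name another kit version than the labels). The genome build, the annotation and whether intronic reads were counted are not given in the sources used here. The counts were deposited without normalization for 55357 gene identifiers, of which 94.1% are in GENCODE M21, and rows with the same symbol were added. Levels are counted at the 3-prime end, so they were compared between cells and not between genes.

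Members and gene lists were chosen with earlier results of these data known. Summed UMIs were given per 1000000 UMIs of the same cells (CPM), with exact Poisson, Clopper-Pearson and conditional binomial 95% intervals, and 0 UMIs with a limit of 3 counts. With 1 library per condition no test was made. Doublets, called with Scrublet (scanpy 1.11.5), were 4.66% of Sham and 4.75% of TAC barcodes, 1 and 5 of them members, and were kept. Named genes were those of the lists, the 15 highest and 10 lowest ratios of lymphatic to blood endothelial level and the 10 highest and lowest of TAC to Sham among called genes with at least 40 UMIs, without mitochondrial, ribosomal, hemoglobin and predicted genes. The 2 TAC cells that held most UMIs of several genes were described after their values were seen. The calculations were tested on simulated data. The simulated counts were Poisson sums without variation between cells, so calls set by single cells lay outside that test. Alternatives were other limits of the rule, depth, mitochondrial share, doublets and thinning. Leaving out the richest cell and asking for 2 defining genes were added after seeing the data. Python 3.11.15, numpy 2.4.6, scipy 1.17.1, pandas 2.3.3 and matplotlib 3.10.9 were used.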

Additional observations from a re-analysis of the deposited data

Results flagged for a closer look

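For 6 of the genes named above the ratio of TAC to Sham was past 2-fold in lymphatic endothelial cells and lay on the other side of 1 in blood endothelial cells, with the interval of each leaving out 1. Over all genes called, this was so for 15 of the 189 that were higher and 9 of the 110 that were lower. The difference between the 2 cell types was not tested. Bmx was at a ratio of 0.356 in lymphatic and 1.275 in blood endothelial cells, from 45 Sham and 27 TAC UMIs in lymphatic cells, and Flt1 at 0.497 and 1.07, where Flt1 had been used to choose the blood endothelial cells and its lymphatic ratio became 1.055 with barcodes of 2 defining UMIs included. The ratio was 9.48 against 0.603 for Ankrd1, 11.6 against 0.672 for Xirp2 and 22.1 against 0.505 for Csmd1, and most of the TAC UMIs of each were in 1 cell. For Csmd1 the Sham count was 0, so 22.1 is a lower bound at a limit of 3 counts. Lsamp was at 0.379 against 1.32, with 22 of its 25 Sham UMIs in 1 cell.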

How the results depend on the processing

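No paired analysis was possible because Sham and TAC each rest on a single library. Over the alternatives 140 values of the main comparisons stayed within their interval or within 1.5 times and 13 moved, and for single genes 1953 stayed, 61 moved and 11 reversed. Between 319 and 545 genes were higher and between 501 and 688 lower in lymphatic than in blood endothelial cells. The number of genes lower in TAC members was 171 with at least 2 defining UMIs, 178 with at least 10 UMIs per gene, 251 with no minimum and 47 with at least 40, where 87 were higher. Flt4 in TAC members was at 803 CPM with at least 2 defining UMIs and 1048 with at least 5. A Lyve1 UMI was seen in 11.8% of Sham and 12.2% of TAC members at 500 UMIs, 37.8% and 40% at 2000, and 39.5% and 42.6% without thinning.

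The ratios of TAC to Sham that reversed were those of Nkain2 (0.673 with at least 5 defining UMIs, 0.664 with no fibroblast UMIs, 0.628 with at least 2 of the 4 defining genes), Ncam1 (0.997 with no fibroblast UMIs, 0.942 with at least 2 of the 4 genes), Ankrd1 (0.673 with at least 5 defining UMIs), Lsamp (1.715 with at least 2 defining UMIs, 1.26 with at least 2 of the 4 genes, 1.99 without its richest cell), and, with at least 2 defining UMIs, Flt1 (1.055) and F13a1 (0.525). The cause was not tested. Eng ranged from 2.08 to 3.11, Id1 from 6.59 to 12.4 and Cyp4b1 from 0.229 to 0.264. With 191 cells, the minimum of 20 UMIs per gene, which was a choice, left 4468 genes to compare between the libraries.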
